A study of Homo sapiens with 6 samples.

Results

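The immunoglobulin cell adhesion molecules are membrane proteins that hold cells to their neighbours. The expression of 10 of their genes was examined in MDA-MB-231, a basal-type line of human breast carcinoma with mesenchymal features: L1CAM, NRCAM, ALCAM, BCAM, MCAM, ICAM1, VCAM1, NECTIN1, NECTIN2 and IGDCC4. The members were all probe sets whose single gene symbol in the platform annotation was one of these names, which gave 24 of the 54613 probe sets that are not array controls. Cells carried a lentiviral vector with eGFP alone (GFP control, 3 arrays) or with GATA3 and eGFP (3 arrays labelled GATA3), were sorted for GFP, and grew for 2 days before RNA was taken. GATA3 is a transcription factor of luminal mammary cells, and the series title states that it moves basal cells towards a luminal subtype. Both groups thus express GFP from a lentivirus. The promoter of the vectors is not given in the sources used here. Whether the triplicates were separate cultures is not stated, so p-values measure only the spread among arrays, which could be technical. Levels are on the log2 scale of GCRMA, an array summary that subtracts background, and a level over 4 was taken as detected.

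Proteins of this superfamily carry immunoglobulin domains outside the cell and, in most cases, a membrane-spanning segment and a short tail inside. They bind the same protein on a neighbouring cell, another family member, an integrin or the matrix. L1CAM and NRCAM belong to the L1 family of nerve cells, whose tails bind ankyrins. Nectins assemble at adherens junctions, where their tails bind afadin, while ICAM1 and VCAM1 are the cytokine-induced ligands by which leukocyte integrins hold on to endothelium. Carcinoma cells often carry several of these proteins, and L1CAM, ALCAM and MCAM have been studied for their part in tumour spread.

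In the arrays labelled GATA3, IGDCC4 fell at least 6.16-fold to values under the detection level, and MCAM rose 2.60-fold by 209087_x_at. Of the probe sets annotated to both MCAM and the microRNA gene MIR6756, the brightest did not rise and the others did. NECTIN2 fell 1.53-fold by 1 of its 4 probe sets, a call that was lost when any 1 of 5 of the arrays was left out. Of its other probe sets, 1 changed by -0.59 on the log2 scale without passing and 2 changed by 0.03 and -0.06. ALCAM, ICAM1, NECTIN1 and L1CAM were detected in both groups and did not pass the threshold of an adjusted p of 0.05 (limma with Benjamini-Hochberg adjustment over all 23785 tested probe sets). BCAM lay barely over the detection level, and NRCAM and VCAM1 were under it on every array.

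The promoters of the member that fell most, the member that rose and a member at the array floor are shown because they differ in base composition. Each is the 250 bases before the gene start, read 5′ to 3′ along the gene, from RefSeq on GRCh38.p14, with CG dinucleotides in capitals. The windows are chr15:65422948-65423197 (minus strand) for IGDCC4, chr11:119317131-119317380 (minus strand) for MCAM and chr1:100719492-100719741 (plus strand) for VCAM1.
IGDCC4: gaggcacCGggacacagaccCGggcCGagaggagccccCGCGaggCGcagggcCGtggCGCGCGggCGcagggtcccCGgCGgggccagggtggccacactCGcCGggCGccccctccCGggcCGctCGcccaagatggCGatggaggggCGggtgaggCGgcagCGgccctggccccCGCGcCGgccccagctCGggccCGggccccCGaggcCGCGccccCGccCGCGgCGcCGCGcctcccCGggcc
MCAM: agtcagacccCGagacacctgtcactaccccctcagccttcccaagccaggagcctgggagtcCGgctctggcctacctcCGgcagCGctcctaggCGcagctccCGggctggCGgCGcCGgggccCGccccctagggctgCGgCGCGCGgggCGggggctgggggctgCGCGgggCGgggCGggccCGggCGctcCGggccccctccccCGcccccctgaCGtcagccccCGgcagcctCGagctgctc
VCAM1: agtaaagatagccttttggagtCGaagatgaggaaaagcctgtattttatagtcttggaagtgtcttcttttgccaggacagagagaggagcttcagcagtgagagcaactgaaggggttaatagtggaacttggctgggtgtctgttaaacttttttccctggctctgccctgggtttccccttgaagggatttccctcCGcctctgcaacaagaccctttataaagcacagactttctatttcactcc
The IGDCC4 window held 38 CG dinucleotides and the MCAM window 26, against a median of 11 over 35116 promoters of the table. The VCAM1 window held 2. Among the other members, NRCAM, under the detection level on every array, had windows with 2, 1 and 29. Windows of members that were not called by gene held 20 (ALCAM), 24 and 25 (BCAM), 23 (ICAM1), 19 (NECTIN2) and 8 and 5 (L1CAM). Whether these counts relate to the changes was not tested. A GATA hexamer (AGATAA, also with T as first or G as last letter, on either strand) was absent from the windows of IGDCC4 and MCAM. The VCAM1 window held 1, AGATAG, starting 245 bases before the gene start. Of the 9 members with an entry, only VCAM1 and L1CAM had a match, and 22.3% of all promoters in the table held one. The table had no entry for NECTIN1. These matches describe the letters of a short window and are not shown to be binding sites.

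Of the 24 probe sets, 14 read over 4 on all 6 arrays, 9 on none and 1, that of IGDCC4, on the 3 GFP control arrays alone. The 15 that were over 4 in at least 3 arrays were tested, and they stood for 8 of the 10 genes. Of these 15, 1 was higher, 2 were lower and 12 did not pass, so that 20.0% were called. With 1 array left out the number lower was 1, except 3 without GATA3 replicate 3, where 2 were higher. Over all tested probe sets the share called was 25.3%, with 11.3% higher and 14.0% lower. The groups did not overlap in 6 of the 15 probe sets (40.0%), against 46.0% of all tested probe sets. Each gene was then read by its brightest tested probe set with a single symbol. On that basis 1 member gene was higher, 1 lower and 6 did not pass (25.0% called, against 29.3% of 10814 genes). The higher gene was MCAM by 209087_x_at. The brighter 211042_x_at, annotated to both MCAM and MIR6756, was left out and did not pass (limma adjusted p 0.223). The groups did not overlap in 4 of the 8 member genes measured, against 49.5% of all genes. BCAM 40093_at counts among both the 6 probe sets and the 4 genes without overlap. Its highest control value was 4.064 and its lowest with the GATA3 label 4.065, barely over the detection level. The median log2 change of those 8 genes was 0.06, against -0.02 over all genes. Since the IGDCC4 probe set entered only through the group in which it was high, it had to differ, and these counts are given as a description.

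**Figure D1:**
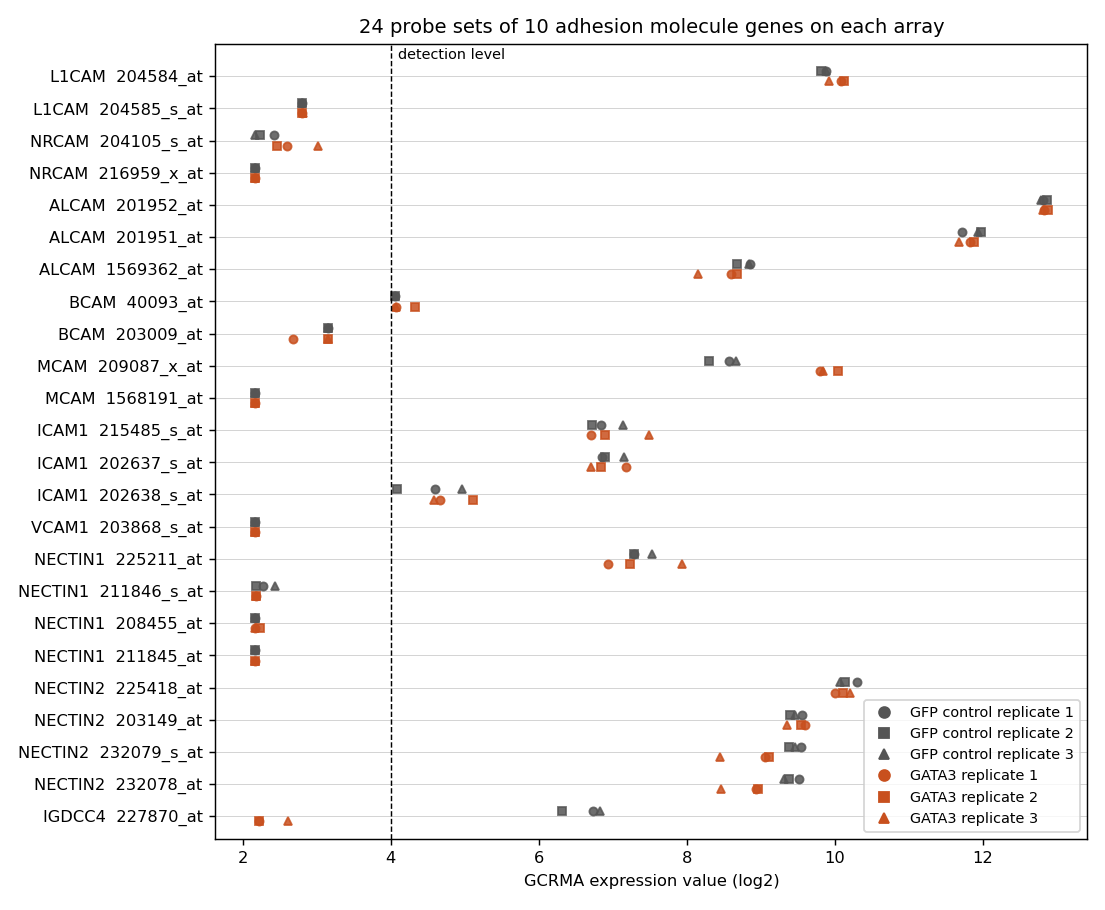
GCRMA expression values (log2, x axis) of all 24 member probe sets on each array, with GFP control arrays in grey, arrays labelled GATA3 in orange, and the marker shape giving the replicate number. The dashed line is the detection level of 4. The groups are far apart for IGDCC4 and for MCAM 209087_x_at, and 9 probe sets lie left of the line on every array.

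Some facts of the whole series bear on these values. The signal of GATA3 itself went against the label. By 209604_s_at it averaged 7.73 ± 0.35 with the GATA3 label against 9.39 ± 0.06 in controls (SD, n = 3), so each direction here rests on the labels. Whether this probe set reads the introduced GATA3 sequence is not known. GATA3 replicate 3 stood apart, correlating with the other arrays labelled GATA3 at 0.984 and 0.986 against 0.995 to 0.997 for the other pairs within a group. It is also the only array with another date in its raw-file name. Among the 15 tested member probe sets it was the lowest of its group in 10. Of the markers looked for in MDA-MB-231, VIM, CD44, AXL, CAV1, KRT18 and EGFR were over 4 on all arrays and PGR was at the floor. ESR1 averaged 4.02 and 4.16 in the groups, and ERBB2 9.56 and 9.40.

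IGDCC4 encodes a receptor-like protein of the DCC subclass, known from embryonic nerve, muscle and liver. Its only probe set (227870_at) read 6.74, 6.31 and 6.82 on the GFP control arrays and 2.22, 2.22 and 2.62 on the arrays labelled GATA3. All control arrays were high, those labelled GATA3 all fell short of the detection level, and the groups were far from overlapping. The fitted log2 change was -4.27 (SE 0.18, adjusted p 8.14e-05 by limma), which stands for a fall of at least 6.16-fold when the low group is set at 4. The probe set was tested only because its control arrays were over 4, so that p is given as a description. Without a filter, where every probe set was tested, the limma adjusted p was 0.00126. The change lay between -4.43 and -4.17 when 1 array was left out. In such bulk RNA, fewer cells with the transcript and less of it per cell cannot be told apart. IGDCC3, the closest relative and the adjacent protein-coding gene on chromosome 15, had no value above 2.45 on any array and was not tested. PRTG, another gene of the same subclass, fell by 229073_at from 6.69 ± 0.21 to 5.94 ± 0.19 (SD, n = 3; limma adjusted p 0.0180), a log2 change of -0.76. Its other tested probe set, 229178_at, changed by -0.41 and did not pass (limma adjusted p 0.102). PRTG was named after its values had been seen.

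MCAM, or CD146, is an adhesion molecule of endothelium, smooth muscle and melanoma. Its probe set 209087_x_at read 8.57, 8.30 and 8.67 on the GFP control arrays and 9.80, 10.04 and 9.84 on those labelled GATA3. Every array labelled GATA3 was higher than every control array, by over 1 log2 unit. The log2 change was 1.38 (SE 0.12, 95% interval 1.08 to 1.68, 2.60-fold, limma adjusted p 0.00110). The suffix _x_at marks probes that may also bind other sequences. The second probe set of MCAM alone, 1568191_at, was at the floor of 2.16 on all 6 arrays.

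A further 4 probe sets carry the symbols of both MCAM and MIR6756, a microRNA gene that RefSeq places inside MCAM, and were therefore not counted as members. Of these, 3 were higher in the arrays labelled GATA3. Probe set 209086_x_at read 6.60 ± 0.17 and 8.54 ± 0.43 (SD, n = 3), a log2 change of 1.93 (limma adjusted p 0.00329). Probe sets 210869_s_at and 211340_s_at changed by 1.48 (limma adjusted p 0.00231) and 1.27 (limma adjusted p 0.000475). The brightest, 211042_x_at, differed from them. It read 11.54, 11.57 and 11.55 in the GFP control and 11.15, 11.17 and 11.61 in the arrays labelled GATA3, where replicates 1 and 2 were low and replicate 3 was as high as the controls. Its change of -0.24 did not pass (95% interval -0.57 to 0.08, limma adjusted p 0.223), but without GATA3 replicate 3 it was -0.39 with a limma adjusted p of 0.00158.

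**Figure D2:**
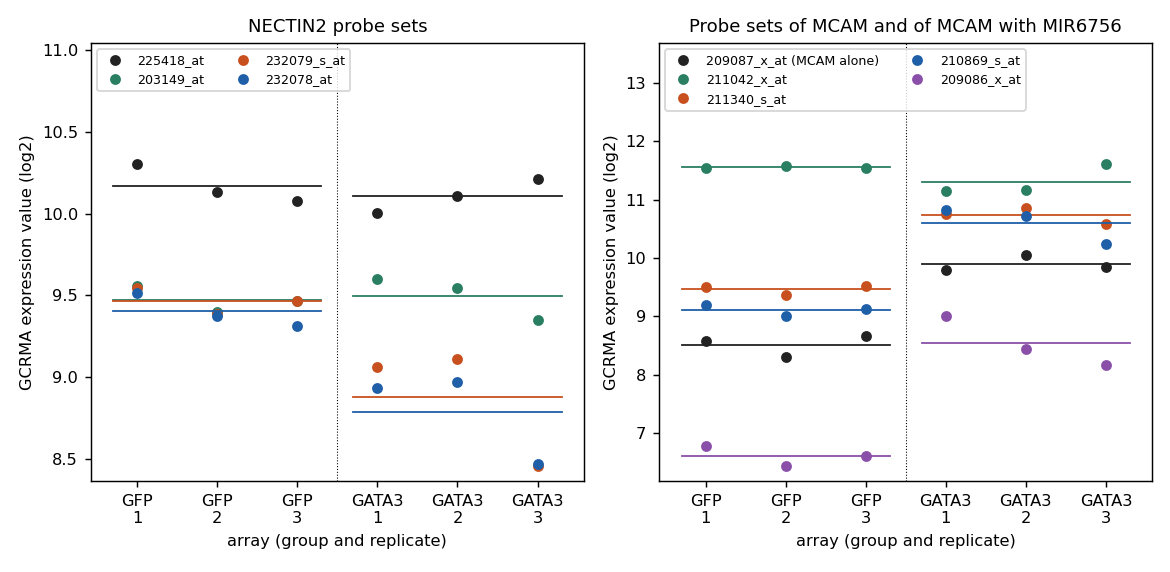
GCRMA expression values (log2, y axis) on each array (x axis) of the 4 NECTIN2 probe sets (left) and of MCAM 209087_x_at with the 4 probe sets annotated to both MCAM and MIR6756 (right). Points are arrays and horizontal lines are group means. In NECTIN2 the probe sets 232078_at and 232079_s_at are lower in the arrays labelled GATA3 and the other pair is not. On the right 211042_x_at alone is not higher.

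Nectins were read by NECTIN1 and NECTIN2, which encode the junction proteins CD111 and CD112. NECTIN2 had 4 probe sets, all well over the detection level, and they did not move together. Probe set 232078_at read 9.51, 9.37 and 9.31 in the GFP control and 8.93, 8.97 and 8.47 in the arrays labelled GATA3, a log2 change of -0.61 (SE 0.15, limma adjusted p 0.0355). That call was lost when any 1 array other than GATA3 replicate 3 was left out, with limma adjusted p-values from 0.0538 to 0.114, and without a filter on low values (0.132). Probe set 232079_s_at, annotated to the same source sequence, read 9.54, 9.39 and 9.46 in the control and 9.06, 9.11 and 8.45 in the arrays labelled GATA3. Its change of -0.59 did not pass (limma adjusted p 0.0743), but did after quantile normalization (0.0216), cyclic loess (0.0462), array weights (0.0203) or without GATA3 replicate 3 (0.0147, change -0.38). For both probe sets the groups did not overlap, and GATA3 replicate 3 was the lowest array.

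The other NECTIN2 probe sets gave 9.47 ± 0.08 and 9.50 ± 0.13 (203149_at) and 10.17 ± 0.12 and 10.11 ± 0.11 (225418_at; SD, n = 3) in the control and the arrays labelled GATA3. Their changes were 0.03 (95% interval -0.19 to 0.24) and -0.06 (95% interval -0.28 to 0.15). The disparity between the pairs was taken array by array, as the mean of 232078_at and 232079_s_at minus the mean of the other pair. It was -0.40, -0.39 and -0.38 in the GFP control and -0.81, -0.78 and -1.32 in the arrays labelled GATA3. The groups did not overlap, and the difference of -0.58 (-0.41 without GATA3 replicate 3) had a two-sided exact permutation p of 0.1, the smallest that 3 arrays against 3 allow. The pairs were formed after their values had been seen. Which transcripts each probe set reads was not tested.

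NECTIN1 was read by 225211_at at 7.29, 7.29 and 7.53 in the control and 6.94, 7.23 and 7.94 in the arrays labelled GATA3. The latter spread on both sides of the controls, and the change of 0.00 had a wide 95% interval of -0.66 to 0.66. Its other 3 probe sets lay under 2.5 on every array. BCAM, the neighbouring gene of NECTIN2 on chromosome 19 with no protein-coding gene between, encodes the Lutheran receptor for laminin. Its probe set 40093_at read 4.06, 4.05 and 4.06 in the control and 4.07, 4.33 and 4.06 in the arrays labelled GATA3, so that GATA3 replicate 2 alone stood out. The change was 0.10 (limma adjusted p 0.436), and with its other probe set (203009_at) at 2.68 to 3.16 expression of BCAM was not shown.

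The L1 family was represented by L1CAM. Its probe set 204584_at read 9.88, 9.81 and 9.88 in the GFP control and 10.08, 10.13 and 9.92 in the arrays labelled GATA3. All arrays labelled GATA3 lay above all controls, though replicate 3 by little. The log2 change of 0.19 (SE 0.07, 95% interval 0.02 to 0.36, 1.14-fold) did not pass with a limma adjusted p of 0.104. It passed after quantile normalization (0.22, limma adjusted p 0.0261), after cyclic loess (0.22, limma adjusted p 0.0336), with array weights (0.25, limma adjusted p 0.00637) and without GATA3 replicate 3 (0.25, limma adjusted p 0.0159). Probe set 204585_s_at stayed at 2.80 to 2.82. NRCAM read 2.42, 2.23 and 2.17 in the control and 2.60, 2.47 and 3.02 in the arrays labelled GATA3 by 204105_s_at, all under the detection level, and its other probe set was at the floor.

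ALCAM, or CD166, binds itself and the lymphocyte receptor CD6, and was bright in both groups. By 201952_at it read 12.81, 12.86 and 12.79 in the control and 12.82, 12.88 and 12.81 in the arrays labelled GATA3, with the groups fully interleaved. The 95% interval of its change was -0.07 to 0.10. Probe set 201951_at gave a change of -0.08 (95% interval -0.29 to 0.14). The dimmer 1569362_at gave -0.32 (95% interval -0.71 to 0.07, limma adjusted p 0.194), with 8.59, 8.68 and 8.14 in the arrays labelled GATA3 against 8.86, 8.68 and 8.84 in the control.

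ICAM1, the ligand of the leukocyte integrin LFA-1, was detected by all 3 of its probe sets. Probe set 202637_s_at read 6.85, 6.90 and 7.15 in the control and 7.19, 6.85 and 6.70 in the arrays labelled GATA3, and 215485_s_at read 6.84, 6.72 and 7.14 and then 6.71, 6.89 and 7.49. The groups overlapped in both, and GATA3 replicate 3 was the lowest of its group by the first and the highest by the second. The changes were -0.06 (95% interval -0.45 to 0.33) and 0.13 (95% interval -0.45 to 0.72). The dim 202638_s_at changed by 0.24 (95% interval -0.41 to 0.88). ICAM4 and ICAM5, the next genes on chromosome 19, had no value above 2.61. VCAM1, the ligand of the integrin VLA-4, read the floor of 2.16 on all 6 arrays by its only probe set.

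**Figure D3:**
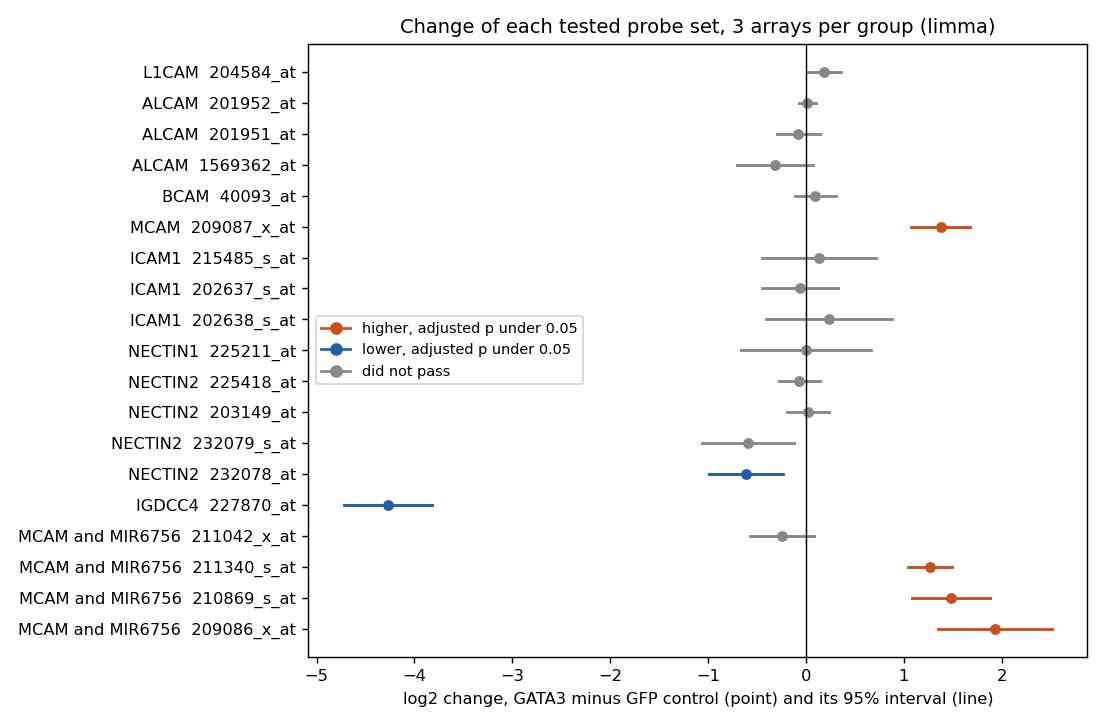
Log2 change (x axis, arrays labelled GATA3 minus GFP control) of the 15 tested member probe sets and of the 4 probe sets annotated to both MCAM and MIR6756, from limma with 3 arrays per group. Points are fitted changes and lines are 95% intervals. IGDCC4 at -4.27 lies apart from all others, and most member intervals cross 0.

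Other immunoglobulin adhesion molecules included both large rises and large falls. Of 51 such genes listed, 23 were measured, and 6 rose, 8 fell and 9 did not pass (60.9% called, against 29.3% of all genes). Their median log2 change was 0.00, against -0.02 over all genes, and their median size of change was 0.76, against 0.21. MPZL3, counted among those that rose, was over 4 only on the arrays labelled GATA3, so it had to differ. This list and the others were chosen with earlier results of these data known, so such shares are given as a description. Genes silent in both groups were not measured, such as NCAM1, PECAM1, CEACAM5 and JAM2, each under 2.2 on all arrays. CADM2, F11R, MPZL1 and HEPACAM had no probe set with their symbol alone, so their expression is not known here. BOC and NFASC, counted among those that did not pass, hardly varied between arrays, and their expression was not shown. MPZL2, an adhesion protein of epithelia and thymus, rose most. It read 5.16, 4.80 and 4.92 in the control and 11.26, 11.32 and 11.20 in the arrays labelled GATA3, which was 78.9-fold (limma adjusted p 4.25e-06). Its other probe sets rose 13.9-fold (230518_at) and at least 27.7-fold (203779_s_at). Probe set 203779_s_at was over 4 only on the arrays labelled GATA3, so it had to differ. CADM1, a nectin-like protein of epithelia and nerve, rose 4.82-fold from 4.32 ± 0.60 to 6.58 ± 0.31 (SD, n = 3; limma adjusted p 0.00647), with 1 control array under the detection level.

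By the brightest probe set of each gene, the largest falls in that list were of about 4-fold. ESAM, an adhesion molecule of endothelial tight junctions, read 8.64, 8.58 and 8.45 in the control and 6.54, 6.52 and 6.14 in the arrays labelled GATA3, 4.44-fold lower (limma adjusted p 0.000310). NEGR1, a lipid-anchored protein of neurons, was 4.29-fold lower (limma adjusted p 0.0205), with GATA3 replicate 3 at 6.0 below replicates 1 and 2 at 7.50 and 7.52. Its probe set 243357_at fell at least 5.89-fold, but was over 4 only on the control arrays, so it had to differ. CDON, a cell surface partner in Hedgehog signalling, was 4.22-fold lower (limma adjusted p 0.00291). The nectin relatives NECTIN3 and PVR, named after their values had been seen, went opposite ways. NECTIN3 fell from 10.90 ± 0.12 to 9.47 ± 0.19 and PVR rose from 10.27 ± 0.02 to 10.84 ± 0.08 (SD, n = 3), with log2 changes of -1.43 (limma adjusted p 0.000830) and 0.57 (limma adjusted p 0.00137). Among endothelial markers CDH5, VWF, PECAM1 and TEK were all under 2.3 in both groups and CLDN5 averaged 5.68 and 6.0. The summed linear level of the 5 markers was 64.1 to 72.2 in the control and 61.2 to 129 in the arrays labelled GATA3. PTPRC, CD3E, CD14 and ITGAX of leukocytes were under the detection level on all arrays.

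Among binding partners outside the cell, genes were called at about the rate of all genes. Of 19 listed, 10 were measured, with 2 higher, 1 lower (2 without GATA3 replicate 3) and 7 that did not pass (30.0% called, against 29.3% of all genes, median log2 change 0.14). LAMA5, the laminin chain that BCAM binds, rose 2.51-fold from 9.57 ± 0.20 to 10.90 ± 0.29 (SD, n = 3; limma adjusted p 0.00446). ITGAV, an integrin subunit that L1CAM can bind, rose by 0.54 on the log2 scale (limma adjusted p 0.00812). ITGA5, the fibronectin receptor subunit, fell 3.16-fold from 8.98 ± 0.07 to 7.32 ± 0.25 (SD, n = 3; limma adjusted p 0.000862). The leukocyte partners ITGAM, ITGB2, ITGA4, CD226, CD96 and TIGIT were under 2.3 on every array. ITGAL, the LFA-1 subunit that binds ICAM1, read 3.77, 3.87 and 3.87 in the control and 3.74, 4.02 and 5.11 in the arrays labelled GATA3 by 213475_s_at, and was not tested. CD6, the ALCAM receptor, read 4.71 on all but GATA3 replicate 3, at 5.43, by 213958_at (limma adjusted p 0.427), and its other 6 probe sets were under 3 on every array.

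Anchors inside the cell went both ways. All 13 listed were measured, with 3 higher, 3 lower and 7 that did not pass (46.2% called, against 29.3% of all genes, median log2 change -0.10). Only 1 was lower without GFP control replicate 1 or 2 or GATA3 replicate 1 or 2. ANK3, or ankyrin G, which binds the tails of L1CAM and NRCAM, read 4.69, 4.88 and 4.83 in the control and 8.81, 8.62 and 8.20 in the arrays labelled GATA3, all far above the controls. It rose 13.4-fold (limma adjusted p 0.000101), while its dimmer tested probe set 209442_x_at changed by 0.94 (limma adjusted p 0.108). PARD3, a polarity protein that nectins recruit, rose 1.52-fold by its brightest probe set (limma adjusted p 0.0100). Its probe set 221526_x_at also rose (0.55, limma adjusted p 0.0126). The dimmer 221280_s_at (0.715, limma adjusted p 0.0645) and 221527_s_at (-0.04, limma adjusted p 0.893) did not pass. The spectrins SPTAN1 and SPTBN1 and the membrane linker MSN fell by 0.29, 0.17 and 0.24 on the log2 scale. Afadin (AFDN), the anchor of nectins, had a change of 0.26 (limma adjusted p 0.0564).

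Enzymes that cut adhesion molecules from the surface formed a list of 8 with the inhibitor TIMP3, of which 6 were measured. MMP14 fell 2.92-fold from 9.16 ± 0.32 to 7.62 ± 0.40 (SD, n = 3; limma adjusted p 0.00966) and BACE2 fell 2.38-fold from 9.83 ± 0.08 to 8.58 ± 0.09 (SD, n = 3; limma adjusted p 0.000263). The other BACE2 probe sets fell 5.47-fold (227051_at) and 7.63-fold (217867_x_at). TIMP3 rose by 0.25 (limma adjusted p 0.0429). ADAM10 and ADAM17, which shed L1CAM and ALCAM, changed by -0.13 and -0.12 and did not pass. BACE1 changed by -0.06 and did not pass by its brightest probe set, but its dimmest, 224335_s_at, fell by 0.81 (limma adjusted p 0.00984). Thus 1 of the 6 was higher, 2 were lower and 3 did not pass (50.0% called, against 29.3% of all genes), with a median log2 change of -0.12. The call of TIMP3 was lost when any 1 array other than GATA3 replicate 1 was left out.

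**Figure D4:**
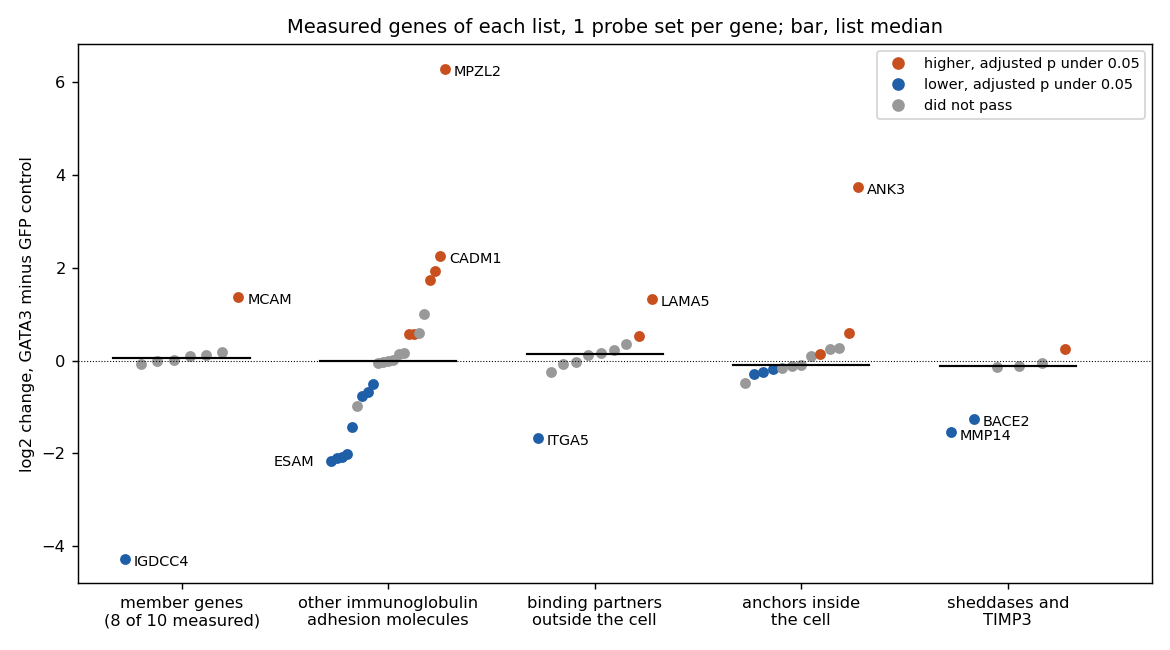
Log2 change (y axis, arrays labelled GATA3 minus GFP control) of each measured gene, with 1 probe set per gene, for the members and the 4 lists around them. Points are genes coloured by call and bars are list medians, which all lie between -0.12 and 0.14 while single genes range from IGDCC4 at -4.27 to MPZL2 at 6.30.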

How the data were processed

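RNA of 6 MDA-MB-231 samples was hybridised to single-colour arrays of 54675 probe sets. The deposited values, read as log2 from their range, were made by the authors with GCRMA, per the submitters' processing notes; its version is not given in the sources used here. Many probe sets stood at a common floor of 2.16, and small values carry no order. Others repeated a value of their own on nearly all arrays, in some cases over the detection level. NFASC 230242_at read 5.576 on all arrays but GATA3 replicate 3, and BOC 230035_at read 5.38 to 5.39 on all arrays. Such probe sets were taken as detected and tested, but these values do not show that their genes were expressed. No further scaling was applied, and 62 control probe sets were dropped. Groups came from the sample labels.

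A probe set was tested if over 4 in at least 3 of 6 arrays. The groups were compared with limma 3.58.1 (R 4.3.3; lmFit, eBayes with trend, no covariates), adjusted by Benjamini-Hochberg over 23785 probe sets. A gene was represented by its brightest tested probe set, and probe sets with several symbols named no gene. Where a whole group was at or under 4, the fold is a lower bound against 4. Named were all members, up to 5 called genes of each list with the largest change, and GATA3. The members and lists were chosen with earlier results of these data known. The fit was tested on simulated data with far fewer changed probe sets than were called here. It recovered 21.2% of 80 changes of 0.5, 68.3% of 60 changes of 1 and 93.3% of 60 changes of 2 (log2). Of its calls there, 6.56% were false. The number of arrays limits the precision.

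Alternatives were filters, normalizations, array weights, no trend, a replicate block and leaving out each array.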

Additional observations from a re-analysis of the deposited data

How the results depend on the processing

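The call of MCAM by 209087_x_at held in each of the 13 alternative fits of probe sets, and no tested member probe set reversed as a called value. The brighter 211042_x_at, annotated to MCAM and a microRNA gene and not counted as a member, went the other way. It passed as lower with array weights (-0.38, limma adjusted p 0.00401) and without GATA3 replicate 3 (-0.39, limma adjusted p 0.00158). In the other fits it did not pass. Member probe sets called higher numbered 1, but 2 after quantile normalization, cyclic loess or array weights and 1 to 2 with 1 array left out. Those called lower numbered 2, but 3 after either normalization or with array weights, 1 without a filter and 1 to 3 with 1 array left out. By gene, 2 members were higher after either normalization or with array weights, 1 to 2 with 1 array left out, and 0 when restricted to the suffix _at. MCAM had no tested probe set with that suffix, so it was not measured there. The causes of the other shifts were not tested. Of the other lists, the count of lower anchors (3) was 1 without a filter, with cyclic loess, without the intensity trend and with the replicate block, 5 with array weights and 1 to 3 with 1 array left out. The count of higher anchors was 0 with the suffix _at alone, where ANK3, PARD3 and SDCBP had no tested probe set. Partners were 4 higher and 2 lower with array weights and 1 higher with the suffix _at alone, where LAMA5 had no probe set. With 1 array left out, 2 to 3 were higher and 1 to 2 lower. With the mean of all probe sets, 3 genes of the sheddase list were lower in place of 2. TIMP3, the single higher gene of the sheddase list, was lost without a filter, without the trend, with the replicate block and with the mean of all probe sets (0 higher in each). With the suffix _at alone 0 were higher, but TIMP3 had no probe set there and was not measured. With 1 array left out 0 to 1 were higher.

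Over all probe sets, array weights gave 4264 higher and 5123 lower, no filter gave 1767 lower, and with 1 array left out 1796 to 3581 were higher and 1801 to 3752 lower. The replicate block gave 2106 lower and changed no member call. The labels do not state whether same-numbered samples were paired. Their deviations correlated at -0.135, 0.159 and -0.109, against -0.253 to 0.228 for differently numbered samples. With 3 arrays per group these values cannot tell paired from unpaired samples. Quantile normalization and cyclic loess moved the median change of all tested probe sets by 0.041 and 0.025. With 3 arrays per group, the intervals in the report limit which changes could be seen.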
